A study of Naumovozyma castellii with 14 samples.

Results

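The 7 protein-coding genes described here lie at the ends of chromosomes 4, 5 and 8 of the budding yeast Naumovozyma castellii. They were chosen from 5599 protein-coding genes (mRNAs) because their RNA was higher in cells without Dicer and Upf1 than in cells without Upf1 alone. The values of that contrast, and of every contrast that shares its libraries, are therefore given for them as a description, with no test. The genes are NCAS_0D00100, NCAS_0E00100, NCAS_0E00110, NCAS_0E00120, NCAS_0H00100, NCAS_0H03660 and NCAS_0H03670. None of the 7 has a symbol in the RefSeq gene table, so no function is given for any of them.

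Total RNA of 14 samples in 5 groups was sequenced by strand, all MATalpha ura3-1 ho and grown to mid-log phase in rich medium (YPD) at 25 °C. The groups are the parent strain YAM2478 (WT, 4 libraries), the same background with upf1::kanMX6 in strain YAM2890 (upf1, 4 libraries), both strains after 15 min in cycloheximide at 100 µg/mL (called WT CHX and upf1 CHX, with 2 libraries for each), and strain YAM2943, which carries dcr1 besides upf1::kanMX6 (dcr1 upf1, 2 libraries). Each genotype is 1 strain, so the genotype and any other difference between strains cannot be told apart. There is no dcr1 strain with intact UPF1 among the groups. Nothing in the labels says whether replicates were separate cultures, so p-values measure only the spread between these libraries.

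Dicer cuts double-stranded RNA into short interfering RNAs, which guide Argonaute to matching transcripts. Saccharomyces cerevisiae has lost this pathway, whereas N. castellii has kept it, and its short RNAs are known to come largely from transposons and from repeated elements near chromosome ends. Upf1 is a helicase required for nonsense-mediated decay, which degrades RNAs that are translated abnormally, and cycloheximide blocks translation and with it that decay. Genes close to chromosome ends of budding yeasts are often kept at low levels by silencing and often exist in several similar copies. No source used here says how reads that match several copies were assigned, so reads of near-identical copies could have been divided among these genes.

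The deposited values are normalised read densities, in reads per nucleotide after division by a size factor for each library. Recovered reads per library ranged from 7895089 to 22437334. The gene for Upf1, NAM7, had a mean density of 0 in upf1, upf1 CHX and dcr1 upf1, against 0.522 in WT and 1.18 in WT CHX. No feature carries the symbol DCR1. NCAS_0C00230, picked out after its values were seen and not named in the files, had 4 reads in each dcr1 upf1 library and at least 230 in each of the other libraries.

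The 7 genes sit at 4 chromosome ends, and coordinates are those of the deposited table. Neither the labels nor the table name its genome build. At the left end of chromosome 4, NCAS_0D00100 spans bases 1 to 722. At the left end of chromosome 5, NCAS_0E00100 spans bases 448 to 1116, NCAS_0E00110 bases 1107 to 1712 and NCAS_0E00120 bases 2856 to 5045. The first pair share 10 bases on the same strand, and 1143 bases lie between the second and the third gene. At the left end of chromosome 8, NCAS_0H00100 spans bases 239 to 3151. At the right end of that chromosome, NCAS_0H03660 spans bases 697109 to 698785 and NCAS_0H03670 bases 698834 to 699265, 48 bases apart, and no feature of the table lies farther out. All 7 genes are transcribed toward the chromosome end. For comparison, 64.6% of the 82 other mRNAs within 10 kb of an end and 49.9% of nuclear mRNAs run toward the nearer end. The outermost mRNAs of the 16 other ends also run toward the end, except NCAS_0E04230, NCAS_0G00100, NCAS_0G04320 and NCAS_0J00100.

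In WT all 7 genes were expressed below the median of mRNAs. Between 1.52% and 40.0% of mRNAs had a lower mean density in WT than each of them, and between 7.80% and 84.1% in dcr1 upf1. All 7 passed the filter on low values, a mean density of 0.02 over the 14 libraries. NCAS_0D00100 and NCAS_0H00100 passed it only with the dcr1 upf1 libraries, since their means over the other 12 libraries were 0.0152 and 0.0183. Read numbers behind a single value ran from 0 to 390 for NCAS_0E00110 and from 136 to 2811 for NCAS_0H03660.

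At the right end of chromosome 8, NCAS_0H03670 had densities of 0.195, 0.165, 0.238 and 0.195 in WT and 0.292, 0.266, 0.278 and 0.331 in upf1. They were 0.447 and 0.380 in WT CHX, 0.779 and 0.503 in upf1 CHX, and 1.43 and 0.837 in dcr1 upf1. Every step in the order WT, upf1, WT CHX, upf1 CHX and dcr1 upf1 was free of overlap between libraries. Its neighbour NCAS_0H03660 had 0.117, 0.0836, 0.137 and 0.102 in WT, 0.173, 0.145, 0.149 and 0.198 in upf1, 0.248 and 0.206 in WT CHX, 0.352 and 0.253 in upf1 CHX, and 0.738 and 0.437 in dcr1 upf1. It kept the same order of groups, again with no overlap between neighbours in that order. The mean in dcr1 upf1 over that in upf1 was 3.88 for NCAS_0H03670 and 3.53 for NCAS_0H03660. On the log2(density + 0.02) scale, which understates changes of low genes, these are differences of 1.84 (SE 0.20) and 1.67 (SE 0.21).

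At the left end of chromosome 5, NCAS_0E00100 had densities of 0.0284, 0.0278, 0.0360 and 0.0198 in WT and 0.0558, 0.0620, 0.0293 and 0.0546 in upf1. They were 0.107 and 0.0713 in WT CHX, 0.178 and 0.102 in upf1 CHX, and 0.274 and 0.244 in dcr1 upf1. The WT and upf1 libraries overlapped, as did those of the cycloheximide groups, and the dcr1 upf1 libraries stood above all of them. NCAS_0E00120, the longest gene at this end, had 0.0207, 0.0132, 0.0140 and 0.00878 in WT, 0.0511, 0.0385, 0.0113 and 0.0348 in upf1, 0.0630 and 0.0722 in WT CHX, 0.0976 and 0.0741 in upf1 CHX, and 0.235 and 0.186 in dcr1 upf1. Only WT and upf1 overlapped among its neighbours in order. The mean in dcr1 upf1 over that in upf1 was 5.14 for NCAS_0E00100 and 6.20 for NCAS_0E00120, with log2 differences of 2.01 (SE 0.23) and 2.15 (SE 0.25).

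Between them, NCAS_0E00110 was close to undetected in WT, with densities of 0.00174, 0.00340, 0.00221 and 0 from 1, 2, 1 and 0 reads. In upf1 it varied most among the 7 genes, with 0.0639, 0.0320, 0 and 0.0105, where the library at 0 allows up to 0.00646 (3 reads, counting error only). The values were 0.0661 and 0.0492 in WT CHX, 0.0359 and 0.0435 in upf1 CHX, and 0.283 and 0.179 in dcr1 upf1. All 4 WT libraries were low, the upf1 libraries reached from the WT level to the level under cycloheximide, and both dcr1 upf1 libraries were far above the rest. Its log2 difference between dcr1 upf1 and upf1 was 2.61 (SE 0.42), the largest and least precise of the 7, and it was 1.90 against upf1 replicates 1 and 2 alone.

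The remaining pair of genes, each alone at its end, had the lowest densities in dcr1 upf1. NCAS_0D00100 had 0.00731, 0.0114, 0.0148 and 0.00832 in WT, 0.00894, 0.0111, 0.00723 and 0.0264 in upf1, 0.0287 and 0.0145 in WT CHX, 0.0288 and 0.0155 in upf1 CHX, and 0.0872 and 0.0622 in dcr1 upf1. The 4 groups other than dcr1 upf1 overlapped along their order. NCAS_0H00100 had 0.0199, 0.00814, 0.0138 and 0.00660 in WT, 0.0172, 0.0154, 0.00314 and 0.0120 in upf1, 0.0303 and 0.0322 in WT CHX, 0.0296 and 0.0307 in upf1 CHX, and 0.0685 and 0.0529 in dcr1 upf1. WT and upf1 overlapped, the cycloheximide groups overlapped each other above them, and dcr1 upf1 was higher still. Log2 differences between dcr1 upf1 and upf1 were 1.52 (SE 0.24) for NCAS_0D00100 and 1.35 (SE 0.22) for NCAS_0H00100, with mean densities 5.56 and 5.08 times as high.

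**Figure D1:**
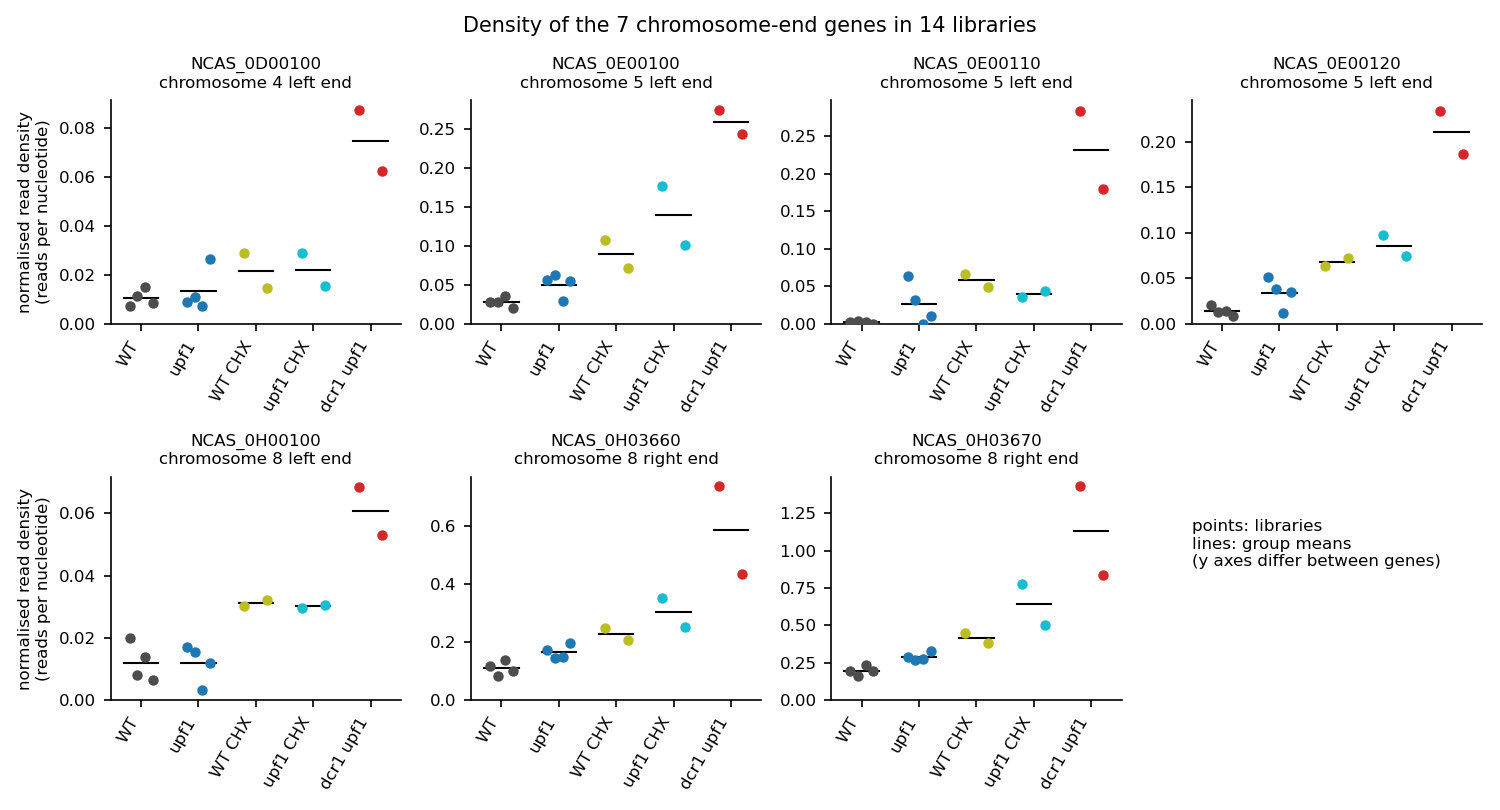
Normalised read density (reads per nucleotide, y axis, a separate scale for each gene) of the 7 genes in the 14 libraries, by group (x axis). Points are libraries and lines are group means; in every panel both dcr1 upf1 points lie above the other 12, and for NCAS_0H03670 they stand at 1.43 and 0.837.

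In all 7 genes both dcr1 upf1 libraries were above every upf1 library, which was the case for 2.73% of the 7518 features tested. They were also above all 12 other libraries, treated ones included, in all 7 genes, against 0.372% of tested features. Since the genes were chosen by dcr1 upf1 against upf1, these counts restate the choice. Across the whole table, limma called 0.333% of features higher and 0.173% lower in dcr1 upf1 than in upf1 at a Benjamini-Hochberg adjusted p under 0.05. Besides the 7 genes, for which this contrast is no test, 6 mRNAs were called higher, with log2 differences of 1.23 to 2.38. The median difference over all tested features was −0.17. Bulk RNA cannot tell more RNA per cell from more cells that hold the RNA.

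The dcr1 upf1 libraries differed from each other in the same direction at all 7 genes. Replicate 1 was 1.13 (NCAS_0E00100) to 1.71 (NCAS_0H03670) times as high as replicate 2, while the median ratio of tested mRNAs was 0.922. Relative to the upf1 mean, the densities were 4.43 to 10.7 times as high in replicate 1 and 2.63 to 6.74 times in replicate 2. Each of the pair of libraries was thus above the upf1 mean at all 7 genes, by a smaller factor in replicate 2. Replicates 1 and 2 of WT and upf1 stood apart from replicates 3 and 4 across the transcriptome, and dcr1 upf1 has replicates 1 and 2 only. Against upf1 replicates 1 and 2 alone, the log2 differences ran from 1.15 (NCAS_0H00100) to 1.90 (NCAS_0E00110 and NCAS_0H03670).

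The upf1 strain alone showed smaller differences from WT, which share the upf1 libraries with the contrast that chose the genes. The log2 differences between upf1 and WT were 0.52 for NCAS_0H03670, 0.53 for NCAS_0H03660, 0.54 for NCAS_0E00100, 0.61 for NCAS_0E00120 and 0.89 for NCAS_0E00110. They were 0.11 for NCAS_0D00100 and −0.01 for NCAS_0H00100. Every upf1 library was above every WT library at NCAS_0H03660 and NCAS_0H03670, 2 of the 7, against 36.7% of tested features. Between dcr1 upf1 and WT the log2 differences were 1.34 for NCAS_0H00100, 1.63 for NCAS_0D00100, 2.20 for NCAS_0H03660, 2.36 for NCAS_0H03670, 2.55 for NCAS_0E00100, 2.76 for NCAS_0E00120 and 3.50 for NCAS_0E00110. All 7 were free of overlap there, against 38.1% of tested features.

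The comparison of WT CHX with WT uses none of the libraries that chose the genes, and asks how they respond to a block of translation. In it, 6 of the 7 genes were called higher by limma, against 94.1% of all tested features, and none lower, against 0.146%. In the same 6 every WT CHX library was above every WT library, against 95.1% of tested features. NCAS_0D00100 and NCAS_0H00100 are among the tested features only through the dcr1 upf1 libraries. Without the filter on low values, limma also called 6 of the 7 genes higher and 0 lower. Called genes rose by 0.69 (SE 0.22, adjusted p = 0.00696, NCAS_0H00100) to 1.82 (SE 0.42, adjusted p = 0.000933, NCAS_0E00110) on the log2 scale, and the last value depends on the pseudocount because WT holds 4 reads in all. NCAS_0E00120 rose by 1.37 (SE 0.25) and NCAS_0E00100 by 1.18 (SE 0.23). NCAS_0H03670 rose by 1.00 (SE 0.20) and NCAS_0H03660 by 0.94 (SE 0.21).

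The exception was NCAS_0D00100, with 0.43 (SE 0.24, limma adjusted p = 0.0962), whose WT and WT CHX libraries overlapped. It passed with the replicate number as a block (limma adjusted p = 0.0482) and without WT CHX replicate 2 (0.68, limma adjusted p = 0.0433). The log2(density + 0.02) scale understates changes of low genes, and mean densities of the 7 genes were 2.06 to 31.4 times as high in WT CHX. On the log2 scale the median of the 7 genes was 1.00, below the median of 1.34 over all tested features. That rise of nearly every feature is relative to the deposited scaling, which follows the snoRNAs. With libraries scaled on the mRNAs, limma called 0 of the 7 genes, against 35.3% of features higher and 20.3% lower, and voom on recovered reads under the deposited scaling called 6. Under the mRNA scaling the median of the 7 was 0.03, and NCAS_0H03660 and NCAS_0H03670 turned to −0.27 and −0.28.

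The comparison of upf1 CHX with WT CHX asks what loss of Upf1 adds when translation is already blocked. Here limma called 0 of the 7 genes, against 4.27% of tested features higher and 0.984% lower. NCAS_0H03670 was the 1 gene with an unadjusted p under 0.05, and voom called 0. Its densities of 0.779 and 0.503 in upf1 CHX lay above 0.447 and 0.380 in WT CHX, a log2 difference of 0.58 (SE 0.24, limma adjusted p = 0.195). NCAS_0E00100 differed by 0.52 (SE 0.27, limma adjusted p = 0.327), NCAS_0H03660 by 0.37 (SE 0.24, limma adjusted p = 0.453) and NCAS_0E00120 by 0.27 (SE 0.29, limma adjusted p = 0.674).

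NCAS_0D00100 and NCAS_0H00100 stood at 0.02 and −0.03, and NCAS_0E00110 at −0.37 (SE 0.48), with both upf1 CHX libraries below both WT CHX libraries. In 3 of the 7 genes every upf1 CHX library was above every WT CHX library, against 23% of tested features. The median of the 7 was 0.27, beside −0.09 over all tested features. Under mRNA scaling limma again called 0 of the 7, against 8.75% of features higher and 5.25% lower. Without the filter on low values it also called 0. Limma on replicates 1 and 2 alone called 2 of the 7 higher and 0 lower, beside 801 features higher and 889 lower. With the compared groups fitted alone, limma called NCAS_0H03670 (adjusted p = 4.12e-05), NCAS_0E00100 (adjusted p = 0.0431) and NCAS_0H03660 (adjusted p = 0.0489), while the whole count of higher features rose from 321 to 802. With 2 libraries in a group, these differences rest on the spread assumed for the pair.

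**Figure D2:**
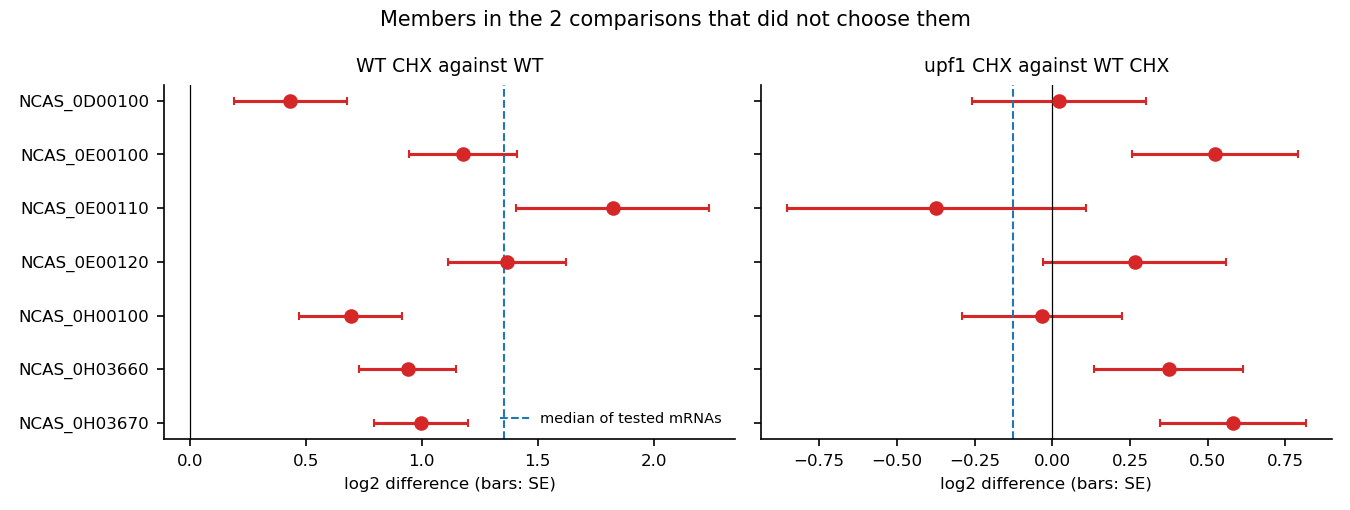
Log2 difference (x axis, points with SE bars) of the 7 genes (y axis) for WT CHX against WT, left, and upf1 CHX against WT CHX, right, with the median of tested mRNAs as a dashed line. On the left all 7 points are above 0, with 5 of them under the mRNA median of 1.35; on the right they spread from −0.37 to 0.58 around 0.

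Neighbouring genes shared most of their order of groups, and their deviations from the group means, which the choice of genes does not fix, are described here over the 14 libraries. For the pair at the right end of chromosome 8 the correlation of deviations was 0.964. At the left end of chromosome 5 it was 0.793 for NCAS_0E00110 and NCAS_0E00120, 0.698 for NCAS_0E00100 and NCAS_0E00120, and 0.52 for NCAS_0E00100 and NCAS_0E00110. The median of the 4 pairs at the same end was 0.746. For 17 pairs at different ends it was 0.438, with a range from 0.019 to 0.894, the highest for NCAS_0E00120 with NCAS_0H00100 on another chromosome. Among 5426 other pairs of adjacent tested mRNAs the median was 0.584. All pairs share libraries and their depth, and NCAS_0E00100 and NCAS_0E00110 share bases. The deviations also hold the difference of replicates 1 and 2 from replicates 3 and 4. In upf1 these means were 0.0480 and 0.00524 for NCAS_0E00110, 0.0448 and 0.0231 for NCAS_0E00120, and 0.0163 and 0.00757 for NCAS_0H00100. NCAS_0E00100 went the same way, and NCAS_0D00100, NCAS_0H03660 and NCAS_0H03670 the other way. What this difference adds to the correlations was not tested.

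At none of the 4 ends did a tested feature next inward of the 7 genes reach a 2-fold difference between dcr1 upf1 and upf1. Counting inward over consecutive tested features with at least a 2-fold difference on the log2(density + 0.02) scale, and leaving out the transcripts opposite the genes, of which XUT0917 and XUT0841 were under 2-fold over all replicates, the difference reached 722 bases on chromosome 4, 5045 bases on the left of chromosome 5, 3151 bases on the left of chromosome 8 and 2157 bases on the right of chromosome 8. Beyond the genes, 0 further features joined at each end. The first tested feature inward lay 1605 to 5285 bases from the genes, so at none of the 4 ends can the reach be placed within that interval. A threshold of 1.5-fold, a pseudocount of 0.005, mRNA scaling and replicates 1 and 2 alone gave the same 4 distances. At a pseudocount of 0.1, tried after the data were seen, NCAS_0D00100 at 0.62 and NCAS_0H00100 at 0.52 were themselves under 2-fold, so the distance was 0 on chromosome 4 and on the left of chromosome 8, and the other 2 distances were the same.

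Within 20 kb of the genes, 61 other tested features had log2 differences between dcr1 upf1 and upf1 of −0.36 to 0.64, with a median of −0.08 and 14 above 0. Limma and voom each called 0 of these 61, where limma called 0.333% of all tested features higher and 0.173% lower. With shares that low, 0 calls among 61 cannot show where the change stops. At an unadjusted p under 0.05 in limma, 4 of the 61 differed, 2 higher and 2 lower. With replicates 1 and 2 alone, limma called 3 of the 61 higher, XUT0841, XUT0917 and NCAS_0H00110, and their median was −0.05. Of all 7518 tested features, 55 were then called higher and 34 lower. In upf1 against WT these 61 features, which include CUTs and XUTs, had a median log2 difference of 1.10. It was 0.53 for the 7 genes and 0.25 over all tested features.

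On chromosome 4, NCAS_0D00110 lies 614 bases inward of NCAS_0D00100 and under the filter, with mean densities of 0.00108 in dcr1 upf1 and 0.000922 in upf1. The first tested feature inward was XUT0532, 1930 bases away and transcribed away from the end, with −0.24. XUTs are transcripts known in S. cerevisiae to be degraded by the cytoplasmic exonuclease Xrn1, and CUTs are known there as substrates of the nuclear exosome. The next mRNAs, NCAS_0D00120, NCAS_0D00130 and NCAS_0D00140, were at −0.03, −0.19 and −0.19. On chromosome 5, no feature that passed the filter lies between NCAS_0E00120 and CUT0794, 5285 bases away, so the reach cannot be placed within that interval. NCAS_0E00130, CUT0792 and CUT0793 lie inside it under the filter, with mean densities in dcr1 upf1 of 0.00645, 0 and 0.00166. Next inward, NCAS_0E00140 was at 0.45, NCAS_0E00150 at 0.05 and NCAS_0E00160 at 0.00.

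On the left of chromosome 8, XUT0842 and CUT1108, which start 1605 and 1628 bases inward of NCAS_0H00100, were at −0.07 and −0.04. The mRNAs NCAS_0H00110, NCAS_0H00120 and NCAS_0H00130 were at 0.26, −0.21 and −0.04. Under the filter, CUT1107 lies 679 bases inward of NCAS_0H00100 on the same strand, and had 7 and 15 reads in dcr1 upf1 against 3, 2, 0 and 0 in upf1. Between it and the gene, CUT1106 had a mean density of 0.000538 in dcr1 upf1 and 0.000439 in upf1. On the right of chromosome 8, the first tested feature inward was CUT1190, 2311 bases away, at −0.12, followed by XUT0916 at −0.01. Under the filter, NCAS_0H03650, 459 bases inward, had mean densities of 0.00291 in dcr1 upf1 and 0.00097 in upf1. CUT1191, also under the filter, had 0.0178 in dcr1 upf1 and 0.00786 in upf1. Among the mRNAs, NCAS_0H03640 was at −0.30 and NCAS_0H03620 at 0.06. NCAS_0H03630 was at 0.61, but its densities in upf1 were 0.0594 and 0.0480 in replicates 1 and 2 and 0 and 0.00876 in replicates 3 and 4. Against replicates 1 and 2 it was at −0.20.

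**Figure D3:**
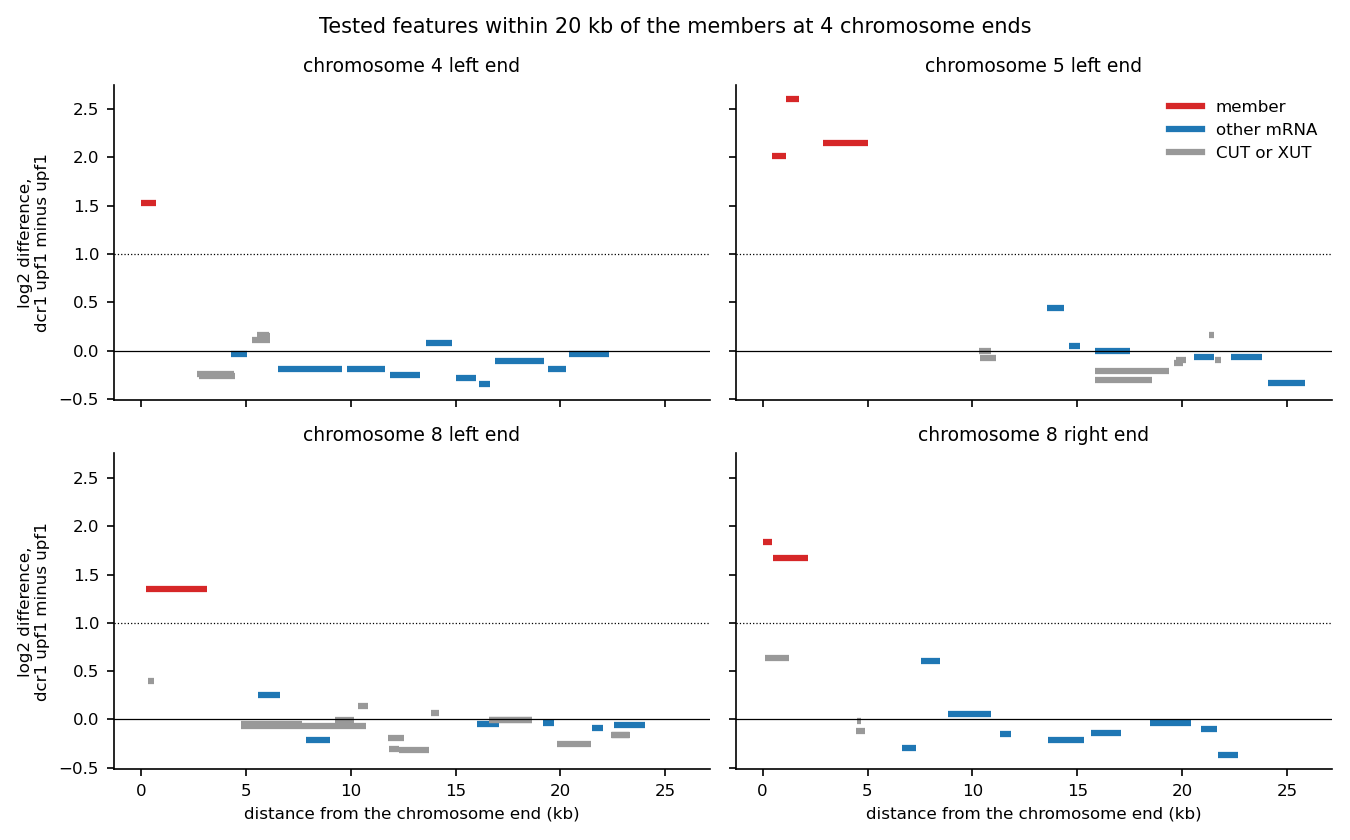
Log2 difference between dcr1 upf1 and upf1 (y axis) of each tested feature by its distance in kb from the chromosome end, or from the outermost feature on the right of chromosome 8 (x axis). Bars span the features, the dotted line marks a 2-fold difference, and the 7 genes in red stand at 1.35 to 2.61 while all other features lie between −0.36 and 0.64.

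Antisense transcripts lie opposite 3 of the 7 genes, 42.9% against 22.9% of nuclear mRNAs. At the right end of chromosome 8, XUT0917 runs opposite the last 757 bases of NCAS_0H03660 and 315 bases of NCAS_0H03670. Its densities were 0.477, 0.416, 0.744 and 0.785 in WT, 0.581, 0.565, 1.04 and 1.05 in upf1, 1.12 and 1.08 in WT CHX, 1.22 and 1.17 in upf1 CHX, and 1.21 and 1.23 in dcr1 upf1. In WT and upf1, replicates 3 and 4 were well above replicates 1 and 2, and the dcr1 upf1 libraries were close to upf1 CHX. Its log2 difference between dcr1 upf1 and upf1 was 0.64 over all replicates and 1.06 against replicates 1 and 2. Both strands were thus higher in dcr1 upf1 than in the upf1 libraries of the same numbers.

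The density of NCAS_0H03670 over that of XUT0917, a ratio within a library that no scaling changes, had a mean of 0.487 in upf1 replicates 1 and 2 and 0.292 in upf1 replicates 3 and 4, and was 1.18 and 0.682 in dcr1 upf1. Its means were 0.344 in WT, 0.374 in WT CHX and 0.535 in upf1 CHX. For NCAS_0H03660 the mean ratio was 0.222 ± 0.0689 (SD, n = 4) in upf1 and 0.483 ± 0.179 (SD, n = 2) in dcr1 upf1, and the libraries did not overlap. These ratios carry the change of the gene that chose it, so they are a description.

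At the left end of chromosome 8, XUT0841 spans bases 328 to 624, opposite the end of NCAS_0H00100. Its densities were 0.0462, 0.0417, 0.0991 and 0.146 in WT, 0.0628, 0.0834, 0.141 and 0.160 in upf1, and 0.151 and 0.139 in dcr1 upf1. Again replicates 3 and 4 of WT and upf1 were above replicates 1 and 2, and the log2 difference between dcr1 upf1 and upf1 was 0.40 over all replicates and 0.84 against replicates 1 and 2. The mean ratio of NCAS_0H00100 to XUT0841 was 0.230 in upf1 replicates 1 and 2, 0.0485 in upf1 replicates 3 and 4, and 0.417 in dcr1 upf1, and 1 WT library, at 0.431, lay between the dcr1 upf1 libraries at 0.380 and 0.453. No CUT, XUT or SUT overlaps any of the 7 genes on its own strand.

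**Figure D4:**
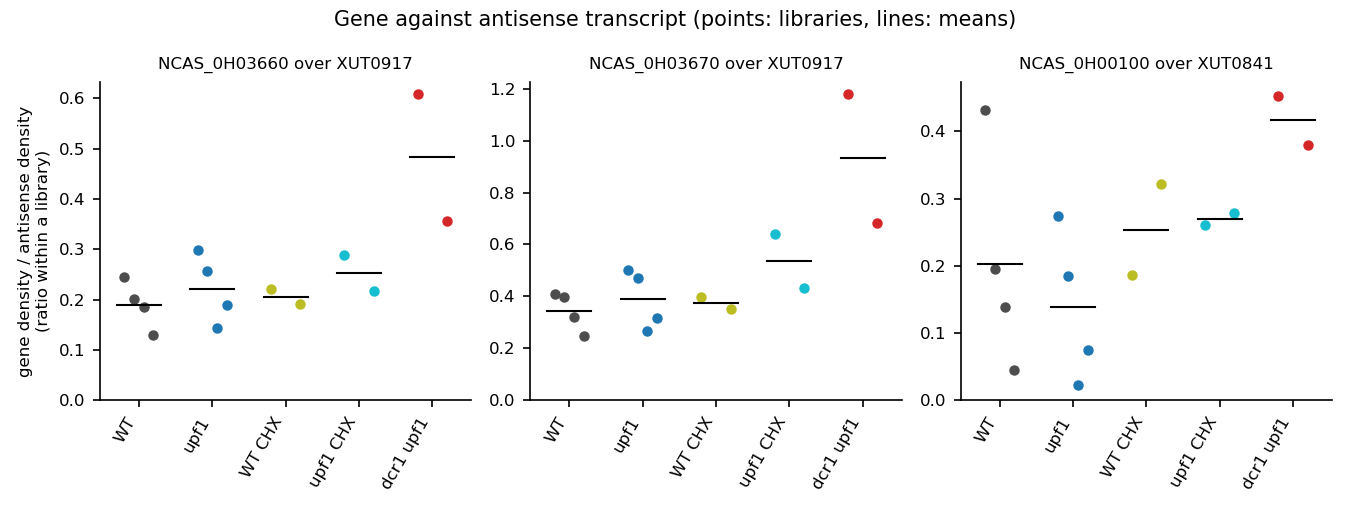
Density of a gene divided by that of the XUT on its opposite strand (y axis, ratio within a library) by group (x axis), for the 3 pairs. Points are libraries and lines are means; in dcr1 upf1 the ratio of NCAS_0H03670 to XUT0917 is 1.18 and 0.682, above the 12 other libraries.

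Outermost tested mRNAs of the other chromosome ends were mostly at or below their upf1 level. Of 20 ends, 4 have 1 of the 7 genes as their outermost tested mRNA. Among these, NCAS_0D00100 and NCAS_0H00100 count as tested only through the dcr1 upf1 libraries. At 7 other ends the outermost mRNA is under the filter, and an mRNA farther in stands for the end. The split into 4 and 16 ends is thus partly set by the filter. At the other 16, the log2 difference between dcr1 upf1 and upf1 ran from −2.32 to 0.71 with a median of −0.31, 2 of the 16 were above 0, and 0 reached 2-fold. Limma called 0 of the 16 higher and 3 lower, against 0.333% and 0.173% of tested features. The 3 were NCAS_0F04110 at −2.32, NCAS_0J00100 at −1.03 and NCAS_0I03210 at −0.99. Of these 16, 1 was higher and 6 lower at an unadjusted p under 0.05, and voom called 0 higher and 4 lower. Among all 70 other tested mRNAs within 10 kb of an end, the values ran from −2.32 to 0.88 with a median of −0.22. The 7 genes, of which the lowest was at 1.35, were chosen for high values in this contrast, so the gap restates the choice. It also depends on the window, since NCAS_0G04260, 10021 bases from the right end of chromosome 7, was at 2.38.

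At 7 ends the outermost mRNA itself was under the filter on low values, and 3 of those 7, named here after their values were seen, had both dcr1 upf1 libraries above all other libraries. That was the case for 0.372% of tested features, which do not include these 7. No share was computed over features under the filter, so the count of 3 is a description only. NCAS_0F04120, which spans bases 825810 to 827735 of chromosome 6 and runs toward the right end, had 139 and 87 reads in dcr1 upf1, against 18, 15, 3 and 4 in upf1. Its mean density was 0.0292 ± 0.00361 (SD, n = 2) in dcr1 upf1 and 0.00431 ± 0.00206 (SD, n = 4) in upf1, a log2 difference of 1.02. NCAS_0D04980 at the right end of chromosome 4 had 80 reads in dcr1 upf1 and 25 in upf1, and NCAS_0C06000 at the right end of chromosome 3 had 15 and 1. At chromosome 6, NCAS_0F04120 was thus higher beside NCAS_0F04110, which was lower in the same libraries.

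**Figure D5:**
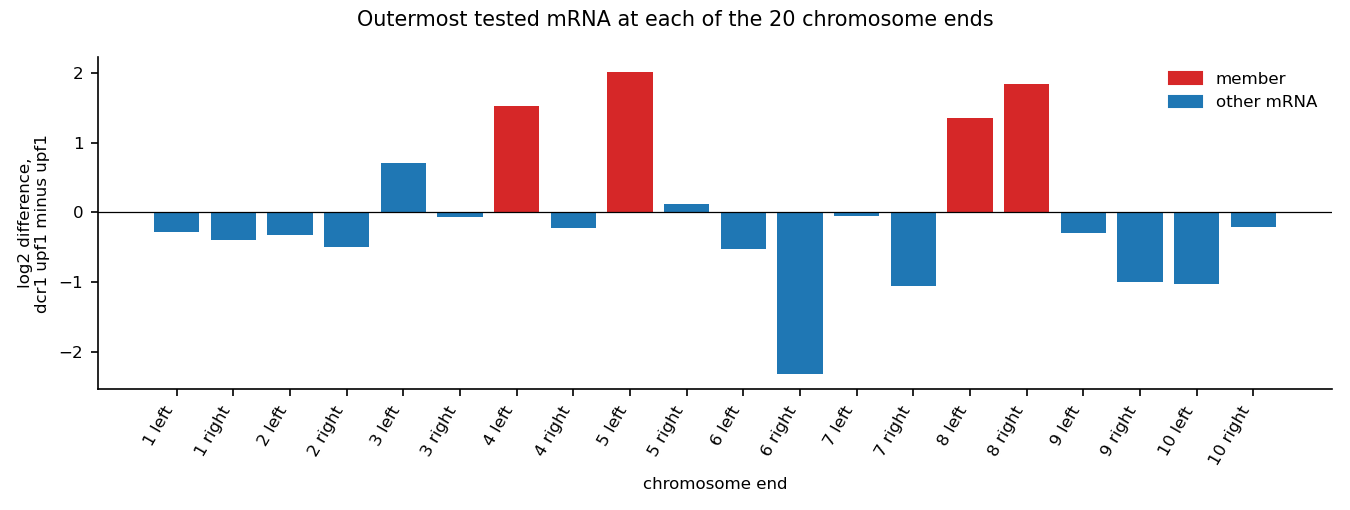
Log2 difference between dcr1 upf1 and upf1 (y axis) of the outermost tested mRNA at each of 20 chromosome ends (x axis). Red bars are 4 of the 7 genes, at 1.35 to 2.01, and blue bars are other mRNAs, from −2.32 on the right of chromosome 6 to 0.71 on the left of chromosome 3. NCAS_0D00100 and NCAS_0H00100 are tested only through the dcr1 upf1 libraries, and at 7 other ends the bar is an mRNA farther in than the outermost.

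The profiles most like those of the 7 genes belonged to mRNAs away from these ends. At each of the 4 ends the same 3 mRNAs, NCAS_0G04260, NCAS_0H01520 and NCAS_0H03380, had the highest Pearson correlations over the 14 libraries with the mean log2 profile of the genes there. None of them has a symbol, and all 3 are among the mRNAs called higher in dcr1 upf1, a contrast that enters the correlation. The correlations were 0.84 to 0.88 for chromosome 4, 0.94 to 0.96 for chromosome 5, 0.85 to 0.90 for the left and 0.94 to 0.98 for the right of chromosome 8.

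NCAS_0G04260, a short gene 10021 bases from the right end of chromosome 7, had densities of 0.441, 0.343, 0.328 and 0.482 in upf1 and 2.64 and 1.72 in dcr1 upf1, a log2 difference of 2.38. NCAS_0H03380 lies 55225 bases from the right end of chromosome 8 and had 0.232, 0.175, 0.212 and 0.232 in upf1 and 1.05 and 0.613 in dcr1 upf1. As with the 7 genes, replicate 1 was above replicate 2 in both. NCAS_0H01520, inside chromosome 8, had 0.111, 0.117, 0.104 and 0.166 in upf1 and 0.514 and 0.552 in dcr1 upf1, with replicate 2 the higher. The 3 rose in WT CHX against WT by 1.66, 1.23 and 1.55 on the log2 scale (limma adjusted p = 1.65e-07 for NCAS_0G04260, 2.2e-05 for NCAS_0H03380 and 1.35e-07 for NCAS_0H01520).

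Genes known for silencing and telomere maintenance in S. cerevisiae were examined beside the 7 genes, since chromosome ends are where they act. Of 24 symbols listed, 23 were found, and limma called 0 of them in dcr1 upf1 against upf1, where 0 higher and 1 lower had an unadjusted p under 0.05 and voom called 0. Their median log2 difference was −0.25, beside −0.17 over all tested features, of which limma called 0.333% higher and 0.173% lower. In upf1 CHX against WT CHX, where 4.27% of features were called higher and 0.984% lower, limma called 3 of the 23 higher and 0 lower, while voom called 3 higher and 1 lower and replicates 1 and 2 alone gave 4 higher and 4 lower. At an unadjusted p under 0.05 there were 4 higher and 3 lower. The 3 that rose in limma are subunits of telomerase: EST3 by 0.99 (limma adjusted p = 0.00134), EST1 by 0.81 (limma adjusted p = 0.00697) and EST2 by 0.70 (limma adjusted p = 0.0117). In WT CHX against WT, where 94.1% of features were called higher, all 23 rose, with a median of 1.55, led by EST2 at 2.10, SIR2, a histone deacetylase, at 2.07, TEN1, which binds telomere ends, at 2.05 and EST1 at 2.01.

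Of 23 symbols listed for RNA interference and RNA turnover, 19 were found, DCR1 and AGO1 not among them. Limma called 0 of the 19 in dcr1 upf1 against upf1, where 0 higher and 1 lower had an unadjusted p under 0.05 and voom called 0. Their median was −0.29, beside −0.17 over all tested features, of which limma called 0.333% higher and 0.173% lower. In WT CHX against WT all 19 rose, beside 94.1% of all features, with a median of 1.42, beside 1.34 over all tested features, led by AIR1 at 1.99, PAP2 at 1.75, SKI7 at 1.64 and DCP2 at 1.56, factors of nuclear polyadenylation, exosome recruitment and decapping. In upf1 CHX against WT CHX limma called 0 of the 19 higher and 1 lower, NAM7, the deleted gene. At an unadjusted p under 0.05 there were 1 higher and 4 lower, voom called 0 higher and 2 lower, and replicates 1 and 2 alone gave 1 higher and 9 lower.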

How the data were processed

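Total RNA from 14 libraries was spiked with ERCC RNA, depleted of ribosomal RNA and sequenced strand-specifically, per the labels' protocols. Trim Galore, DESeq2, featureCounts (version 2.0.0) and HISAT2 (version 2.2.0) appear, without their roles, per the submitters' processing notes. Neither these notes nor the labels name a genome build or annotation. The deposited values are a signal, a normalised read density: multiplied by feature length and divided by the worth of 1 read, 100% of values in each library came out whole within 0.001 reads. The deposited size factors were within 0.0315 (log2) of median-of-ratios factors over the 37 snoRNAs, but up to 0.899 from those over the mRNAs, so changes are relative to the snoRNAs. Of 8602 lines, 259 repeats were left out, leaving 8343 features. Recovered reads per library ranged from 7895089 to 22437334. Of 5599 mRNAs, 5588 are in the RefSeq gene table, 5586 of them at identical coordinates, and 4484 carry a symbol.

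Groups came from the titles. Each library's departures from its group mean correlated at 0.209 to 0.432 between WT and upf1 libraries of 1 number. Between WT and upf1 libraries of different numbers, both within replicates 1 and 2 or both within 3 and 4, the correlations were 0.264 to 0.489. They were −0.504 to −0.247 between replicates 1 or 2 of one and 3 or 4 of the other. Tests used limma 3.58.1 with statmod 1.5.0 in R 4.3.3 on log2(density + 0.02), over the 7518 features with a mean density of at least 0.02, with 5 group means over 14 libraries (9 residual degrees of freedom, median prior degrees of freedom 7.69), eBayes with trend and robust, and Benjamini-Hochberg adjusted p under 0.05. The procedure was tested on simulated data. Members, lists and rules were chosen with earlier results of these data known. Named features are the 7 genes, the 3 nearest tested mRNAs on either side, every CUT, XUT or SUT overlapping them or within 2 kb, the 3 mRNAs most correlated per end, and up to 4 called genes per list and comparison. Alternatives were other pseudocounts (0.005 and 0.1), no filter, mRNA-ratio scaling, the compared groups alone, the replicate block, replicates 1 and 2 alone and leaving out each library. Voom on recovered reads was added after the data were seen. The spike-in RNA was not analysed here, and no sequences are shown.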

Additional observations from a re-analysis of the deposited data

How the results depend on the processing

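The log2 differences of the 7 genes between dcr1 upf1 and upf1 stayed above 0 under every alternative run, from 0.52 (NCAS_0H00100, pseudocount of 0.1) to 3.80 (NCAS_0E00110, voom). The 4 distances were the same under the 4 alternatives named with them, and at a pseudocount of 0.1 those for chromosome 4 and the left of chromosome 8 fell to 0. In WT CHX against WT, with 7075 features higher and 11 lower, mRNA-ratio scaling gave 2655 higher and 1529 lower, and turned NCAS_0H03660 to −0.27 and NCAS_0H03670 to −0.28. The lower count was 19 with the replicate block, 25 with replicates 1 and 2 alone and 10 to 17 without 1 library. In upf1 CHX against WT CHX, with 321 higher and 74 lower, the counts were 555 and 209 at a pseudocount of 0.1, 802 and 1098 with the compared groups alone, 578 and 324 with the replicate block, 658 and 395 under mRNA-ratio scaling, 801 and 889 with replicates 1 and 2 alone, and 99 to 209 and 16 to 21 without 1 library. The lower count was 46 at a pseudocount of 0.005 and 149 by voom. In dcr1 upf1 against upf1, with 25 higher and 13 lower, mRNA-ratio scaling gave 41 higher, replicates 1 and 2 alone 55 higher and 34 lower, and leaving out 1 library 8 to 13 lower, with 8 without dcr1 upf1 replicate 2. In each case the cause was not tested. With the replicate block NCAS_0D00100 passed in WT CHX against WT (0.52) and NCAS_0H03670 in upf1 CHX against WT CHX (0.58, limma adjusted p = 0.00957). Same-numbered libraries of the pairs of groups that share 2 numbers deviated together by at most 0.0509, a check that holds too few numbers to show pairing or the difference between replicates 1 and 2 and replicates 3 and 4, so the block assumes a pairing. The count test listed among the alternatives was not run, since the deposited densities are divided by length. Depth limits NCAS_0E00110 most: 5 of the 98 values rest on fewer than 3 reads.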
